A study of Mus musculus with 2 samples.

Results

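The 10 genes described here encode cystatins, inhibitors of cysteine proteases. They are the mouse stefin A genes Stfa1, Stfa2, Stfa2l1, Stfa3, BC117090 (current symbol Cstdc6), 2010005H15Rik (current symbol Csta2) and BC100530, together with stefin B (Cstb), cystatin C (Cst3) and cystatin E/M (Cst6). They were chosen by name, with their values in these arrays already known, so their ratios are given as a description and not as a test. Of the 10 genes, 8 had a probe of their own, and their 12 probes stood among 41167 probes on the array. After the filter on dim probes 8 of these genes remained among 10456 measured genes.

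RNA came from the skin of 25-day-old mice, heterozygous for a Pla2g2f transgene (Pla2g2f-Tg/+) and, as controls, their littermates, both on a C57BL/6 background. Pla2g2f encodes a secreted phospholipase A2, and the series' title says that the transgenic mice lose hair and have thickened, psoriasis-like epidermis. RNA of 4 mice per genotype was pooled, and the transgenic pool was hybridised against the control pool on 2 two-colour arrays, with Cy5 for the transgenic pool on array 1 and Cy3 on array 2. Nothing in the labels marks the arrays as separate pools, so the arrays counted as 1 replicate and no test between mice was possible. The sources used here do not name the promoter that drives the transgene.

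Stefins, the type 1 cystatins, are small proteins without a signal peptide that act mainly inside cells. They bind reversibly in the active site of papain-like proteases such as cathepsins B, H, L and S. Mice carry a cluster of stefin A genes where humans have the single gene CSTA, whose protein is a component of the cornified envelope and whose loss in humans causes peeling skin. In mice, stefin A genes are also known as transcripts of neutrophils. Cystatins C and E/M are type 2 cystatins, which are secreted, and the mouse mutant that lacks cystatin E/M has a severe disorder of cornification.

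The stefin A genes are close copies, so the probe sequences decide which transcript a value can stand for. Of the 60-base probes for stefin A members, 5 are printed here, to show which runs they share, beside probes of 2 neighbouring transcripts. The probes A_51_P384894 (BC117090), which stands for Cstdc6, and A_51_P105380 (2010005H15Rik) are described in words. The sequences were read from the array's own annotation, and capitals mark runs of at least 10 bases shared with a probe of another name in the cluster.
Stfa2 (A_51_P135944): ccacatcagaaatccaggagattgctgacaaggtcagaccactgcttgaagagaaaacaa
Stfa2l1 (A_52_P398925): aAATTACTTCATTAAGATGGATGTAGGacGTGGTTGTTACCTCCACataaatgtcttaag
ENSMUST00000077110 (A_52_P425092): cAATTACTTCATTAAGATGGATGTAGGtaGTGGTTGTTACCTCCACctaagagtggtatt
Stfa3 (A_51_P504815): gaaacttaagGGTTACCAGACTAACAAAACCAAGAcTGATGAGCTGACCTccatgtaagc
EG433016 (A_51_P401907): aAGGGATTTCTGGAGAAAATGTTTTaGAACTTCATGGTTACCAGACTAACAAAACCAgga
BC117090 (A_51_P132185): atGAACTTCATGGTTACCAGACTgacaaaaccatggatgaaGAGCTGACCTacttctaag
BC117090 (A_52_P487686): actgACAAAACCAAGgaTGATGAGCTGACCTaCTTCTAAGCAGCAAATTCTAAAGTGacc

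The Stfa2 probe shared no run of 10 bases with any other probe of the cluster. The Stfa2l1 probe differed from that of ENSMUST00000077110 at 10 of 60 positions, with a common run of 26 bases. The Stfa3 probe shared 22 bases with the probe of EG433016 (current symbol Cstdc4), and the BC117090 probe A_51_P132185 shared 21 bases with it. The probe of 2010005H15Rik begins with the 25-base run that A_52_P487686 carries as its last capitals, and the third BC117090 probe, A_51_P384894, overlaps A_52_P487686 by 45 bases without a mismatch. A search of 41174 probe sequences on both strands for runs of at least 20 bases shared with the member probes found only probes of this cluster.

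The array's annotation carries the same ambiguity. All 3 BC117090 probes list transcripts of both Cstdc6 and Cstdc5. A_51_P132185 also lists the transcript of Stfa1, and the other BC117090 probes list the GenBank record BC100530. Stfa1 and BC100530 had no probe named for them, so no value of their own is given. The Stfa2l1 probe also lists Stfa2. Values below are therefore those of probes, and a single transcript of the cluster cannot be assigned to them with certainty.

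The 5 stefin A members that were measured were higher in the transgenic pool, by measured ratios of 3.34-fold to 35.9-fold in the mean of both arrays. A gene was called when both arrays gave a ratio of 2-fold or more in one direction. By that rule 6 of 8 measured member genes were higher and 0 were lower, while 3.72% of all measured genes were higher and 1.68% were lower. These shares only set the scale, because the members were chosen with these ratios known. The 6 genes were Stfa2, Stfa3, Cstdc6, Csta2, Stfa2l1 and Cst6, and Cstb and Cst3 did not pass. The median log2 ratio, transgenic over control, was 3.58 over these 5 stefin A members, against -0.0079 over all genes. That median is the value of the Cstdc6 probe A_51_P384894, taken as the brightest. Another Cstdc6 probe, A_51_P132185, had a mean of 4.89, so the median depends on the choice of probe. In RNA from whole skin, more cells of a type and more RNA per cell cannot be told apart.

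**Figure D1:**
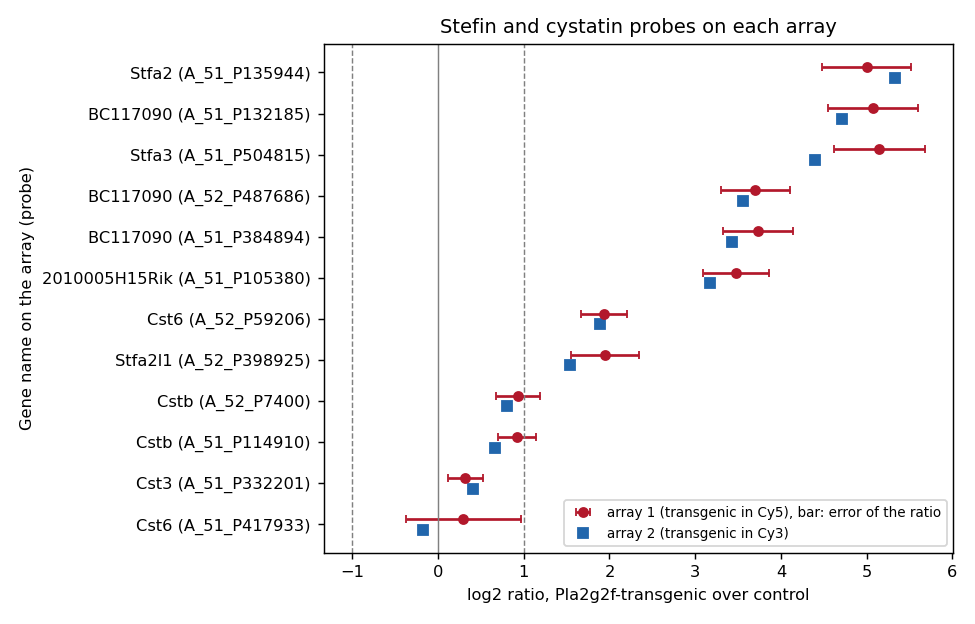
Log2 ratio of the Pla2g2f-transgenic over the control pool (x axis) for each of 12 member probes (y axis), with array 1 as circles and array 2 as squares. The bar is the error of the array 1 ratio from the scanner software's model of 1 spot, dashed lines mark 2-fold, and 8 probes lie beyond it to the right on both arrays.

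Stfa2, a stefin A inhibitor, had a processed signal of 3654 in the transgenic pool and 114 in the control pool on array 1, the second being dim (not well above background by the scanner software). Its log2 ratios were 5.00 on array 1 and 5.33 on array 2, a mean of 5.17. Counting the control at 199, the lowest Cy3 signal that was well above background, made Stfa2 at least 18.4-fold higher on array 1. That bound holds only for the scanner software's processed signals. With normexp background correction and loess on array 1, the mean log2 ratio of Stfa2 was 3.67, and its array 1 ratio fell under the bound. The probe lies at chr16:36324443-36327520 on the minus strand (mm8), a span of 3078 bases for 60 bases of probe, so its sequence is interrupted in the genome.

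Stfa3, another stefin A inhibitor, had signals of 22083 in the transgenic pool and 623 in the control pool, both well above background. Its log2 ratios were 5.15 and 4.40, a mean 27.4-fold ratio, and the gap between the arrays (0.75) was the widest among the 12 member probes. Its probe lies at chr16:36369846-36369905 on the minus strand (mm8), the far end of the cluster. The array values of Stfa2 and Stfa3 overlapped, so their order is not settled.

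The 3 BC117090 probes fell into 2 levels of ratio. A_51_P132185 had signals of 28430 in the transgenic pool and 844 in the control pool and log2 ratios of 5.07 and 4.71, a mean 29.7-fold difference. A_51_P384894 had 60891 in the transgenic pool and 4579 in the control pool, with log2 ratios of 3.73 and 3.43. A_52_P487686 had 43569 in the transgenic pool and 3346 in the control pool, with log2 ratios of 3.70 and 3.56. Both ratios of A_51_P132185 lay above all ratios of the other BC117090 probes, although the design places the 3 probes within one stretch of chromosome 16, at chr16:36240925-36241019 (mm8). A_51_P132185 and A_52_P487686 differ at 2 of the 40 positions at which they overlap. Which copies hybridise to which of these probes was not tested.

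Csta2 (2010005H15Rik), a stefin family gene, had signals of 4627 in the transgenic pool and 416 in the control pool. Its log2 ratios were 3.48 and 3.18, a mean of 3.33, and its probe lies at chr16:36176605-36176664 on the plus strand (mm8). These values overlapped those of A_51_P384894, with which it has a 25-base run in common. Stfa2l1 had 427 in the transgenic pool and 111, not well above background, in the control pool. Its log2 ratios of 1.95 and 1.54 gave a mean 3.34-fold ratio, at least 2.15-fold on array 1 by the scanner software's processed signals. As measured, its ratios lay below those of every other stefin A member probe, although with a dim control channel they are only bounded. The call for Stfa2l1 was lost with normexp background correction and loess on array 1, where its mean log2 ratio was 0.98, and when each array was centred on its spike-ins (mean 1.26).

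**Figure D2:**
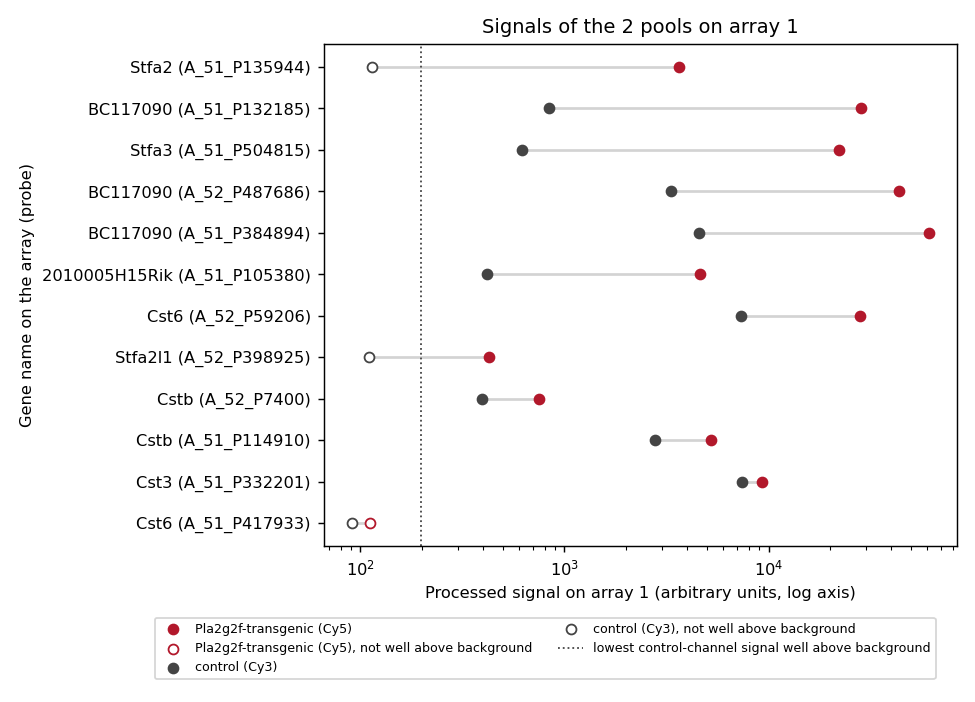
Processed signal on array 1 (x axis, arbitrary units, log axis) of each member probe (y axis) in the transgenic pool and the control pool. Open circles are channels not well above background: the control channel of Stfa2 and Stfa2l1, and both channels of the Cst6 probe A_51_P417933.

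Of the members outside the cluster, Cst6 was higher by the rule and Cstb and Cst3 were not. Cst6, on chromosome 19, encodes a secreted inhibitor of legumain and cathepsin L. It had signals of 27914 in the transgenic pool and 7304 in the control pool and log2 ratios of 1.93 and 1.89, a mean 3.77-fold ratio at chr19:5347982-5348041 on the minus strand (mm8). The second Cst6 probe was not well above background in either channel and had log2 ratios of 0.29 and -0.18, so the Cst6 value rests on 1 probe. The log2 ratios of Cst6 overlapped those of Stfa2l1.

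Cstb, the widely expressed stefin B, is best known for a human epilepsy caused by its loss. Its brighter probe had 5254 in the transgenic pool and 2783 in the control pool, with log2 ratios of 0.92 and 0.67. Its other probe gave 0.93 and 0.81. All 4 values, between 1.59-fold and 1.91-fold, stayed under 2-fold and below those measured for Stfa2l1. Centred on the spike-ins the mean log2 ratio of Cstb was 0.31. Cst3, the secreted cystatin C, had 9240 in the transgenic pool and 7410 in the control pool and log2 ratios of 0.32 and 0.40. The direction of the Cst3 difference depended on the scale: centred on the spike-ins its mean was -0.12.

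**Figure D3:**
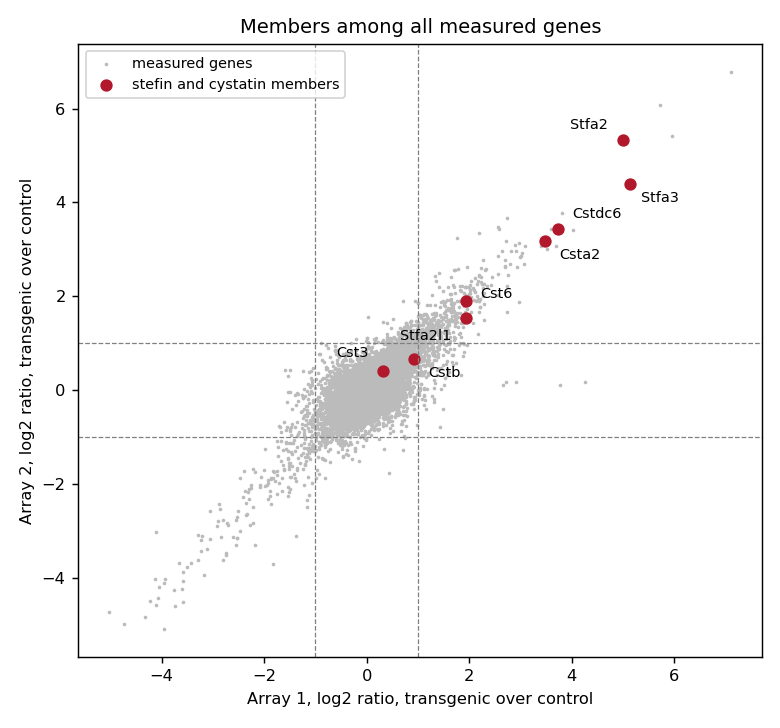
Log2 ratio of the transgenic over the control pool on array 1 (x axis) against array 2 (y axis) for 10456 measured genes, with the 8 measured members marked. Dashed lines mark 2-fold; Stfa2, Stfa3, Cstdc6 and Csta2 lie at the upper right, Cst6 and Stfa2l1 past both lines, and Cstb and Cst3 inside them.

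Between the arrays the Pearson r was 0.777 over all measured probes, which are not independent replicates. The arrays' log2 ratios for a gene lay 0.23 apart in the median, and 10 of 12 member probes had the higher ratio on array 1. Pla2g2f itself had log2 ratios of 0.54 and 0.34, below the 2-fold rule, and the sources used here do not say whether the transgene's transcript holds that probe. Of 10 probes for added spike-in RNA, the median log2 ratio was 0.46 toward the transgenic pool. Values here keep the scaling of the arrays, under which 389 genes were higher and 176 lower. Centred on the spike-ins the counts were 159 higher and 449 lower, and 5 of 8 members were still called.

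The difference was not shared by every gene of the cluster. The probes of the cluster spanned 326 kb of chromosome 16 (mm8), from Csta1 to Stfa3. Of 12 probes in that span 9 passed the filter, and 8 of these were higher by the rule, while 3.72% of all measured genes were higher. The 8 include the 3 overlapping BC117090 probes, so they do not stand for 8 separate genes. Among the 8, the probes of Stfa2, Stfa2l1 and NAP065340-1 passed the filter only through the transgenic channel in which they are high, so the filter favoured their call. The exception was Csta1 (named Csta on the array), the stefin A gene at the near end, with signals of 1355 in the transgenic pool and 906 in the control pool and log2 ratios of 0.58 and 0.49. Among the 8 was a transcript without a gene symbol, NAP065340-1, with 346 in the transgenic pool and 88.5, not well above background, in the control pool. Its log2 ratios were 1.97 and 2.63, with a bound of at least 1.74-fold from array 1.

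The other 3 probes in the span were dim in both channels. Cstdc4, whose probe shares 22 bases with that of Stfa3, had signals of 109 in the transgenic pool and 93.9 in the control pool, so the bright Stfa3 signal on array 1 was not matched by signal on that probe. Its log2 ratios were 0.21 on array 1 and 2.01 on array 2, and the arrays therefore disagree on it. The probe of ENSMUST00000077110, with 26 bases in common with the Stfa2l1 probe, had 208 in the transgenic pool and 92.5 in the control pool and log2 ratios of 1.17 and 1.43. Cstdc3 (EG209324) lay at -0.31 and 0.29.

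In the mean of both arrays, measured genes beside the cluster differed less than its member probes. Within 1 Mb on either side 13 genes were measured, with a median of 0.23 for their mean log2 ratios and a range of -0.31 to 1.23. On the Stfa3 side the nearest of them, Eaf2, lay 668 kb from the Csta1 probe. Casr and Cd86, which follow Stfa3 in gene order, were not among the 13. Only Hcls1, which encodes a signalling protein of blood cells, was higher by the rule, at 1.01 and 1.45, and 0 were lower. The spike-in medians, 0.37 on array 1 and 0.59 on array 2, exceed the flanking median. Its sign therefore depends on the scale, and centring on the spike-ins puts Hcls1 under 2-fold on both arrays. Parp14, a gene that responds to interferon, had ratios of 1.06 and 0.61.

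**Figure D4:**
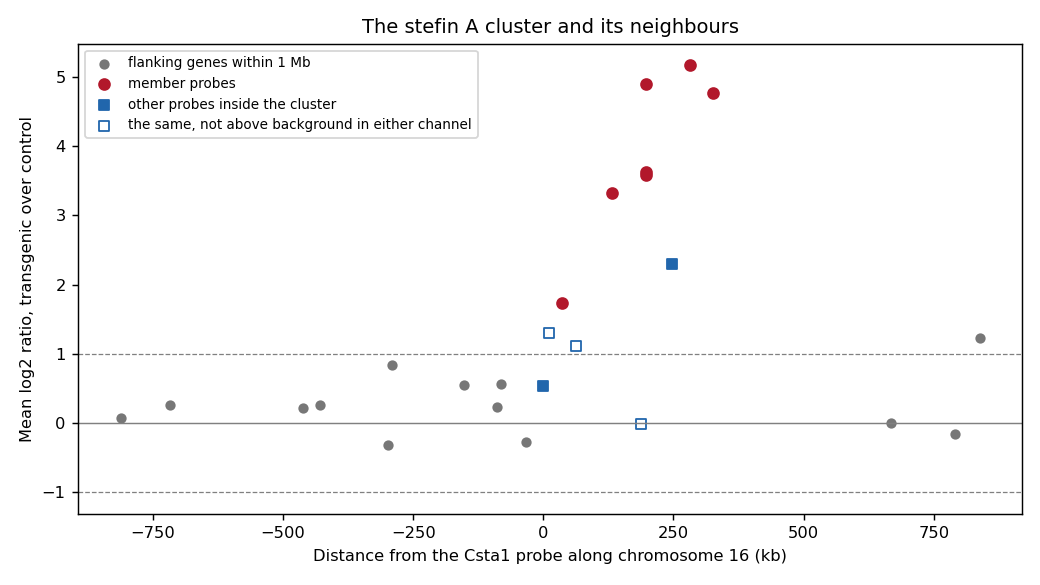
Mean log2 ratio of the transgenic over the control pool (y axis) against the distance from the Csta1 probe along chromosome 16 (x axis, kb) for stefin cluster probes and 13 flanking genes. The member probes lie between 1.74 and 5.17, whereas Csta1 lies at 0.53 and the flanking genes between -0.31 and 1.23.

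Promoters were compared because the members of the cluster were higher while Csta1 did not pass the rule. RefSeq sequence of the 250 bases before the annotated start (GRCm38.p6) was held for 11 of 14 listed genes, as 12 promoters, and Cstdc6, Cstb and Cst6 were not among them. The promoters of Stfa2, Stfa3 and Stfa2l1 are printed beside those of Csta1, which did not pass, and Csta2, which did. Capitals mark runs of at least 8 bases found in the promoters of Stfa1, Stfa2, Stfa2l1, Stfa3 and Cstdc5 alike.
Stfa2 (chr16:36408364-36408613, minus strand): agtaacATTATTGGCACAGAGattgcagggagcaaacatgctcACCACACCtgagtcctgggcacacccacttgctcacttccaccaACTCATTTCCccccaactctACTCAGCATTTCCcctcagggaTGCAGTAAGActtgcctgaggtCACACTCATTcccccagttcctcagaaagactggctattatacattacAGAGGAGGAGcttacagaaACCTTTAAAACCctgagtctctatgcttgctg
Stfa3 (chr16:36455393-36455642, minus strand): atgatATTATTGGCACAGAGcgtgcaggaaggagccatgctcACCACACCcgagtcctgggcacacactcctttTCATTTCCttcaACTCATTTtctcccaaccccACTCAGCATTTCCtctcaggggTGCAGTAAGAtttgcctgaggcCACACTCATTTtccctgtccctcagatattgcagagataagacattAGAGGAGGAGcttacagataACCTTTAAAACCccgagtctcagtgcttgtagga
Stfa2l1 (chr16:36156561-36156810, plus strand): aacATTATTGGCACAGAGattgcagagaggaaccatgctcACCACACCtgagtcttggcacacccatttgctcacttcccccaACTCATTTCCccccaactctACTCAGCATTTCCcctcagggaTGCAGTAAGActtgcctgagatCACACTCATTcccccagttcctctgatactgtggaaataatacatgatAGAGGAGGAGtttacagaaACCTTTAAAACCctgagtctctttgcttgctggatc
Csta1 (chr16:36131190-36131439, minus strand): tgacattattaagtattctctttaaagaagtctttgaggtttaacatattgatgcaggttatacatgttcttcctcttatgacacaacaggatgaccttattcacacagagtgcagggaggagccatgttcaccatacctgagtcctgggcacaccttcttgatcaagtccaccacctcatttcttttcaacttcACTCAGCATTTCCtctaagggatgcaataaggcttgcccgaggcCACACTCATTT
Csta2 (chr16:36221312-36221561, plus strand): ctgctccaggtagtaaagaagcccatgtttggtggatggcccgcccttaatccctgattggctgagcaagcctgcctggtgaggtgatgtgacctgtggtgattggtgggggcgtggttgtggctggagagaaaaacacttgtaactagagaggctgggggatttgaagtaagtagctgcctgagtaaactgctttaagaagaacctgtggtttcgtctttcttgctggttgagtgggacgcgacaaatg

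The Stfa2 and Stfa2l1 promoters were 91.9% identical over 247 aligned columns. Both genes had a dim control channel, with bounds of at least 18.4-fold for Stfa2 and at least 2.15-fold for Stfa2l1. The runs given next were picked because the 5 promoters named above share them, so their presence there was fixed in advance. Of these 5 genes, Stfa1 and Cstdc5 had no probe named for them. The run ATTATTGGCACAGAG stood in the 5 promoters and in no other of the 32851 mouse promoters in the table, on either strand. The run ACTCAGCATTTCC, present also in Csta1, stood in 8 promoters of the cluster and 9 of all. The run ACCTTTAAAACC stood in 8 of the cluster and 11 of all, began at positions -36 to -12 from the start in the 5 promoters, and was found in neither Csta1 nor Csta2.

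Csta2, which was higher by the rule, carried none of these runs, and its promoter aligned with that of Stfa2l1 over only 27 columns. Csta1, which did not pass, carried 24 bases of them within the 250 bases searched. Its 13-base run began at -55, nearer to the start than in the 5 promoters (-147 to -121). In Csta1 the matching place of the 12-base run may therefore lie past the annotated start, outside the 250 bases. That the 12-base run was not found in Csta1 cannot be taken as a difference between the genes. In Csta3 and one promoter of Cstdc3 the 13-base run began at -189 and -167, against -147 to -121 in the 5 promoters. The matching place of the 15-base run may there lie outside the 250 bases. Its absence from these promoters therefore cannot be taken as a difference between the genes. The 6-letter motif TTTAAA, which resembles a TATA box, was in 10 of the 12 promoters, against 12.1% of all promoters on either strand. Its place differed: it began at -230 in Csta1 and at -29 in Stfa2. A GATA motif, AGATAA, was in 5 of 12 against 9.99%. A C/EBP-like motif, TTNNGNAA, was in 8 of 12 against 36.8% of all promoters. A motif like that of AP-1, TGANTCA, was in 1 of 12 against 6.75%. Most promoters of the cluster, other than that of Csta2 and one of Cstdc3, are copies of each other, so these counts are not independent, and a match is no evidence of binding.

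The proteases that cystatins inhibit were listed beside them. Of 11 cysteine cathepsins and legumain, 10 were measured, 1 was higher by the rule, 0 were lower, and their median log2 ratio was 0.41. The one was Ctss, cathepsin S, a protease of antigen-presenting cells, with signals of 3984 in the transgenic pool and 1086 in the control pool and log2 ratios of 1.87 and 1.42. With each array centred on its spike-ins its ratio on array 2 was 0.83, and the call was lost. Ctsl, cathepsin L, whose loss in mice causes hair loss and epidermal thickening, had 0.37 and 0.51. Lgmn, the protease legumain, had 0.49 and 0.76, and Ctsb, cathepsin B, had 0.33 and 0.02. Spike-in centring put the list's median at -0.069, so its sign depends on the scale. The same holds for the other cathepsins (-0.033) and the envelope genes (-0.29) described next.

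Of 4 other cathepsins 3 were measured, with a median of 0.45. The aspartic protease Ctse was lower, with 111, not well above background, in the transgenic pool and 291 in the control pool and log2 ratios of -1.39 and -3.12. With the dim channel bounded, it was at least 1.53-fold lower on array 1, which is under 2-fold. Ctsd, the main lysosomal aspartic protease, had 0.90 and 1.27 and so missed the rule on array 1. Among 6 measured genes of other cysteine protease systems the median was 0.49. Casp14, a caspase of cornifying keratinocytes, was higher at 1.22 and 1.41 but not when centred on the spike-ins (0.85 and 0.82), and the remaining 5 did not pass. The 6 measured transglutaminases and envelope substrates had a median of 0.19, and none (0) passed. Among these, Tgm5 had the largest mean, with ratios of 0.75 and 0.96, and Tgm1, the main crosslinking enzyme of the cornified envelope, had -0.41 and -0.26.

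The remaining cystatins gave no measurable signal. All 8 other type 2 cystatin genes with a probe, Cst7 among them, were not well above background in either channel. Neither were the 5 type 3 and related genes, which include the kininogens Kng1 and Kng2. No signals of array 2 were used, so this holds for array 1 only. Fetub, of the type 3 and related genes, had log2 ratios of 0.33 on array 1 and 1.45 on array 2.

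**Figure D5:**
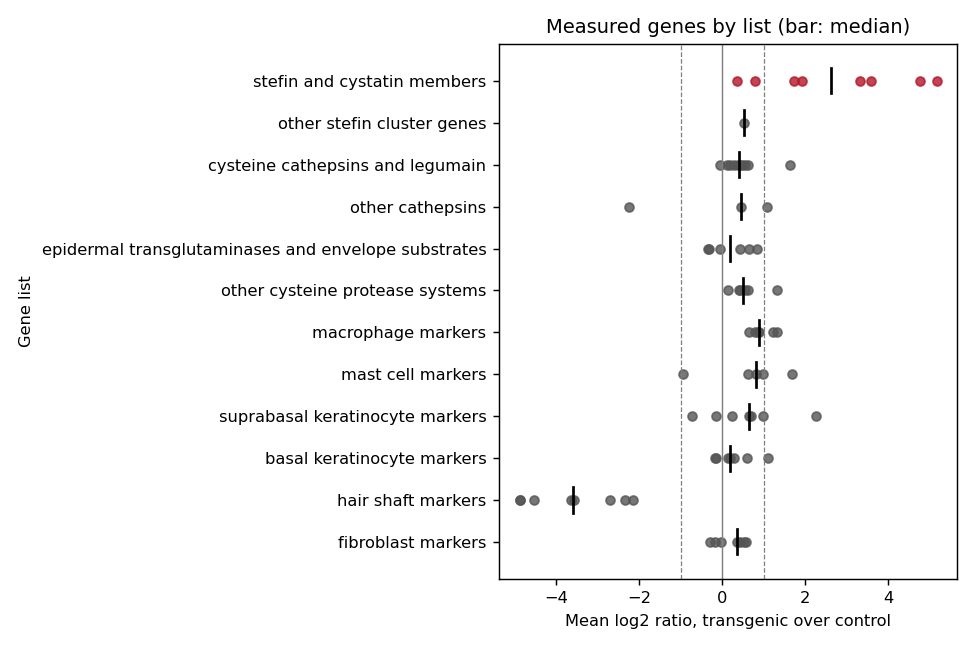
Mean log2 ratio of the transgenic over the control pool (x axis) for each measured gene of the members and of each list (y axis), with a bar at the median. The protease lists have medians of 0.41 to 0.49 and the hair shaft markers one of -3.60.

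Markers of several cell types also differed between the pools, and their part in the stefin ratios was not tested. The 11 neutrophil markers with a probe, Mpo, Elane, Ngp and Retnlg among them, were all dim in both channels of array 1. Their summed signal was 1146 in the transgenic pool and 1104 in the control pool. Of 6 measured macrophage markers 2 were higher, Adgre1 (1.55 and 1.08) and Lyz2 (1.25 and 1.22), with a median of 0.88. Centred on the spike-ins 0 of 6 passed. The summed signal of all 9 macrophage markers was 26721 in the transgenic pool and 11709 in the control pool, of which Lyz2 alone gave 22467 in the transgenic pool and 9424 in the control pool. Of 5 measured mast cell markers 1 was higher, Hdc, the enzyme that makes histamine, and their median was 0.82. Hdc had log2 ratios of 1.74 and 1.61 with a dim control channel and a bound of at least 1.55-fold from array 1, whereas Kit, a receptor of mast cells and pigment cells, had -0.78 and -1.09. The 7 mast cell markers summed to 3017 in the transgenic pool and 2309 in the control pool.

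Among 7 suprabasal keratinocyte markers 1 was higher, Krt1 (2.23 and 2.30), with a median of 0.64 and summed signals of 135056 in the transgenic pool and 74704 in the control pool. Dsg1a, a desmosomal cadherin, went the other way at -0.48 and -0.98, and Dsc1 had 0.04 and -0.35. Among 7 basal markers 1 was higher, Krt14 (1.14 and 1.09, but 0.77 and 0.50 centred on the spike-ins), with a median of 0.19 and summed signals of 255631 in the transgenic pool and 189328 in the control pool. All 8 measured hair shaft keratins were lower, with a median of -3.60 and summed signals of 10339 in the transgenic pool and 85206 in the control pool. Krt33a, one of them, had log2 ratios of -4.74 and -4.99. None (0) of 7 fibroblast markers passed, their median was 0.37, and their summed signals were 467722 in the transgenic pool and 435654 in the control pool. With spike-in centring the medians of the basal and the fibroblast markers were -0.29 and -0.11.

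The genes with log2 ratios nearest to the medians of the 5 stefin A genes on the 2 arrays (3.73 and 3.43) were Cd163l1, Defb6, Cxcr6, Serpinb3b and Krt16, by Euclidean distance over the 2 arrays. On each array that median was the value of the Cstdc6 probe A_51_P384894, so these are the genes nearest to that probe. Cd163l1, a scavenger receptor gene, had 3.77 and 3.40 at a distance of 0.047. The beta-defensin Defb6 had 3.59 and 3.44, and Krt16, a keratin of activated epidermis, had 3.70 and 3.06. Cxcr6, a chemokine receptor, had 4.02 and 3.40, and the serpin Serpinb3b had 3.81 and 3.77. Cd163l1, Cxcr6 and Serpinb3b were dim in the control pool on array 1. With only 2 arrays of the same pools, likeness here means no more than a ratio of about the same size.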

How the data were processed

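Total RNA (500 ng) from pooled skin was labelled with Cy3 or Cy5, per the labels' protocols. The authors made each spot's intensity with Agilent Feature Extraction 9.5.1.1, which subtracted background, removed spatial trends and normalised the dyes, per the file headers. Surrogates stand for dim values and pull their ratios toward 1. That program also gave the deposited log10 ratios (Cy5 over Cy3) with their errors, per the file headers. The deposited p-value models 1 spot on 1 array, per the file headers, and was not used as a test. In the deposited table each array has a log10 column, with medians of 0.0145 and -0.0243. The first column matched the scanner ratio at 43790 features within 5.0e-10. Before turning array 2, the Pearson r of the columns was -0.579 without controls and 1.00 over 10 spike-in probes, as an exchange of dyes gives. For array 2 only that column was used, and the sources used here do not give its later processing.

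Ratios were taken to log2 as transgenic over control and averaged over the 2 arrays. Control spots and 29 outlier spots were left out. A probe entered when array 1 had it well above background in either channel (13341 probes), and a gene was given by its brightest probe. On array 1, 0 spots were saturated. A fold given as "at least" sets the dim channel to the lowest signal well above background (199 in Cy3, 190 in Cy5), comes from array 1 alone and may carry dye bias. Such a fold holds only for the scanner software's processed signals, not for other background corrections. Among 16 probes printed repeatedly, the median SD over spots was 0.087 on array 1 and 0.079 on array 2. Precision is limited by there being only 2 arrays, and with 1 array per dye orientation no batch could be examined.

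Names came from a RefSeq gene table (GRCm38.p6), 24370 through accessions, 6300 through symbols and 2425 through synonyms, and 8072 probes kept the name on the array. The size rule was tested on simulated data. Genes named are all members, list genes past the rule or otherwise up to 4 with the largest means, and the 5 genes most like the stefins. Other list genes, the flanking genes and the transcripts of the cluster were chosen after their values were seen. The members, lists and spike-in centring were chosen with earlier results of these data known. Protein sequences were not used here. Alternatives were each array alone, other filters on dim probes, limma 3.58.1 normexp (offset 50) with loess for array 1, other centring, the median probe, and 3-fold or 1.5-fold rules. Python 3.11.15 and R 4.3.3 were used.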

Additional observations from a re-analysis of the deposited data

How the results depend on the processing

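The count of higher member genes, 6 of 8, was 6 from each array alone, without the filter on dim probes, with the arrays centred on the median probe, with the median of a gene's probes and with 1 spike-in shift for both arrays, a setting chosen after seeing the data. It was 5 with normexp and loess on array 1, 5 with each array centred on its spike-ins and 5 under a 3-fold rule, each time without Stfa2l1. Under a 1.5-fold rule it was 7, with Cstb added. With both channels of array 1 required to be well above background it was 4 of 6, since Stfa2 and Stfa2l1 then dropped out. Mean log2 ratios ranged over the settings from 3.67 to 5.33 for Stfa2, 4.11 to 5.15 for Stfa3 and 3.10 to 3.73 for Cstdc6. They ranged from 2.58 to 3.48 for Csta2, 1.43 to 1.93 for Cst6, 0.98 to 1.95 for Stfa2l1 and 0.31 to 0.92 for Cstb. Cst3 turned to -0.12 centred on the spike-ins of each array and to -0.099 with 1 spike-in shift; the centring subtracts more than its ratio. The counts over all genes, 389 higher and 176 lower, were 243 and 86 with both channels well above background, 107 and 56 with normexp and loess, 159 and 449 centred on the spike-ins, 176 and 457 with 1 spike-in shift, 140 and 95 at 3-fold and 864 and 397 at 1.5-fold. From 1 array alone 520 to 568 genes were higher and 259 to 274 lower, so more genes passed than with both arrays required. Without the filter on dim probes 426 of 27594 genes were higher and 191 lower. Centred on the median probe the counts were 341 and 187, and with the median of a gene's probes 391 and 178. The lists of proteases, other cystatins, and transglutaminases and envelope substrates held 26 measured genes, of which 3 passed. That count was 1 with normexp and loess, 1 centred on the spike-ins, 1 with 1 spike-in shift, 0 at 3-fold and 5 at 1.5-fold. The cause of the normexp changes was not tested. Signal over background limits Stfa2 and Stfa2l1, whose control channel gives only a bound. No paired analysis was possible because there was 1 pool per genotype, and the 2 arrays are repeats of that pair.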
